A study of Mus musculus with 12 samples.

Results

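The nuclear pore and transport genes described here are those whose array probe carried exactly 1 gene symbol of a pore protein, an importin or other karyopherin, an exportin, or a Ran-binding factor. They came to 100 probes of 46 genes, out of 28704 probes and 10225 named genes on the array: 17 pore genes, 16 import genes, 9 export genes and 4 genes of the Ran cycle or of other Ran-binding proteins. The choice used gene names alone and no measured value.

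MC3T3-E1, an osteoblast-like line derived as a clone from mouse calvaria, was compared between 6 samples under fluid shear and 6 static controls. Sheared monolayers on glass stood in a parallel plate chamber for 5 h under a 1 Hz pulsatile flow that averaged 5 dyn per square centimetre. Controls were held without flow in the same kind of apparatus. Both groups were grown in 5% serum, and for both the medium of the flow period held 1% serum, at 37 °C. The RNA amount was 50 µg for every sample. Whether replicates were separate cultures is not in the labels; the p-values therefore rest on a spread between samples that may be technical. The cells are 1 clonal line, and in bulk RNA fewer cells of a type and less RNA per cell cannot be told apart.

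Nuclear pores are large channels in the nuclear envelope, built of nucleoporins that form a scaffold, a permeability barrier and flexible filaments. Importins and exportins carry proteins and RNA through them, recognising signals on the cargo. Direction comes from the GTPase Ran, which is loaded with GTP inside the nucleus by Rcc1 and triggered to hydrolyse it in the cytoplasm by Rangap1. In cells that sense mechanical load, transcription regulators reach their target genes through these channels.

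Spotted 2-colour arrays gave 1 log2 value per probe and sample, relative to the median of a block of 598 neighbouring probes in that sample. Each of 6 arrays carried 2 samples of the same group in opposite dyes, taken to be replicates 1 and 2, 3 and 4, and 5 and 6. Shear samples had values for 21847 to 23721 probes and control samples for 18434 to 23790; of the 100 transport probes, 89 to 91 had a value in shear samples and 86 to 95 in control samples. Correlations over probes were 0.953 to 0.982 within an array, 0.871 to 0.935 between arrays of 1 group and 0.846 to 0.922 between groups. Sparc, an abundant protein of bone matrix, averaged 5.60 in shear and 5.48 in control samples, and Col1a2, a chain of type I collagen, 4.45 in shear and 4.40 in control samples. Of 14 osteoblast markers, 7 had a named probe and 6 were tested. Col1a1, the other chain, averaged 1.40 in shear and 1.65 in control samples. Alkaline phosphatase, Alpl, lay below the block median, at -0.95 in shear and -1.01 in control samples, and so did Msx2, a transcription factor, at -2.28 in shear and -1.65 in control samples. Dlx5, a bone transcription factor, averaged -0.40 in shear and 0.57 in control samples and fell by 0.97 on the log2 scale (limma adjusted p = 0.0492). Markers of macrophages and osteoclasts (4 tested), endothelium (6), fat (4), cartilage (4) and muscle (4) gave 0 past the threshold in limma. At unadjusted p under 0.05 limma gave 1, the endothelial Eng, higher under shear, where 10.4% of all features were called higher. Some of these markers read above osteoblast markers such as Col1a1 and Alpl. The highest was the muscle gene Tnnt1, at 3.20 in shear and 3.79 in control samples, and the lowest was Eng, at -2.15 and -2.86.

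Promoters of 3 genes are shown because each is the highest change in its class (import, export, Ran cycle) and holds the same hexamer. The sequences are those of RefSeq for GRCm38.p6, from 250 bases before to 50 after an annotated start, 5′ to 3′ on the gene's strand. Capitals mark the motifs found.

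Ipo7: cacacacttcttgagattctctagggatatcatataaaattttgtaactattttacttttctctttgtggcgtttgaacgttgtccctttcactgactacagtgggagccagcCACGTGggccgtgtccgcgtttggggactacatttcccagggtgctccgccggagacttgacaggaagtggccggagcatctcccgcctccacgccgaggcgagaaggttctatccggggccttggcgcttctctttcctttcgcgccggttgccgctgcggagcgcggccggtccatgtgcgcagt

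Xpot: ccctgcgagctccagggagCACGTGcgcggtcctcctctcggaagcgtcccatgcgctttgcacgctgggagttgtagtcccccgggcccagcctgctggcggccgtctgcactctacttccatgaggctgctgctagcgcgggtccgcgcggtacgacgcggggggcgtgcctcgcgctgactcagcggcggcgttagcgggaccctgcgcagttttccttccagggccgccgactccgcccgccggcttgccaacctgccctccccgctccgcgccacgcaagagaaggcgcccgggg

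Ran: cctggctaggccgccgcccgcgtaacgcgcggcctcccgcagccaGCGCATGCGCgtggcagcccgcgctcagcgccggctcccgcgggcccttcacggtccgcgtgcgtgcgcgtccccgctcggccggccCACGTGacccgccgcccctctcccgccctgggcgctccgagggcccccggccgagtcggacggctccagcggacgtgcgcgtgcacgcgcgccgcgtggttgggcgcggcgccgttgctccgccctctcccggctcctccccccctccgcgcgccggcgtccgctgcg

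These windows lie at chr7:110018065-110018364 on the plus strand for Ipo7, chr10:121626283-121626582 on the minus strand for Xpot and chr5:129019906-129020205 on the plus strand for Ran. The E-box hexamer CACGTG begins at -137 from the start of Ipo7, at -231 from that of Xpot and at -118 from that of Ran. Ran also holds an NRF1 motif of 10 letters, the first run of capitals in its line, at -205. RefSeq promoters were matched for 38 of the 46 genes, 45 windows in all, and searched on both strands for motifs picked with earlier results of these data known. The E-box was in 7 of the 45 (15.6%) and in 7.15% of 32851 mouse promoters, belonging to Ipo4, Ipo7, Nup188, Nup93, Ran, Ranbp2 and Xpot. Log2 changes of these genes, shear minus control, were 0.07, 1.40, 0.22, 0.15, 0.48, 0.77 and 1.82 in that order. A link between motif and change was not tested. The NRF1 motif was in 5 (11.1%; Nup107, Nup50, Nup62, Ran and Xpo5), against 0.971% of all promoters. An ETS motif, CCGGAAG, was in 7 (15.6%) against 8.86%, and the cyclic AMP element TGACGTCA in none against 1.79%. These letters were only located in sequence, and no factor was measured on them. The window of Pom121, the highest change among pore genes, held none of the 4 motifs.

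Under shear, 1 transport gene rose past the threshold: Ipo7, an importin that carries ribosomal proteins, histones and signalling proteins into the nucleus, was 2.63-fold higher. That is 1 of 41 tested genes, where the share of all features called higher was 1.28%. The call was narrow: limma's adjusted p was 0.0497, 0.0552 with array means and 0.0910 with a replicate block, and it was lost in 26 of 32 alternatives. In some of these another probe of Ipo7, or the mean of its probes, was fitted. No transport gene fell. The other genes did not pass, and 28 of the 41 genes that could be tested were above 0 (68.3%), against 61% of all 15601 features, with a median log2 change of 0.22 against 0.11. This position above 0 depended on the scaling: the median over the transport genes was 0.08 when samples were centred on features measured in all of them and 0.03 after cyclic loess, where the median of all features was -0.02 and -0.01. The share of higher genes among all calls was 68.6% and 69% under these scalings, against 86.2%. After quantile normalization the transport median was 0.11, against 0.09 over all features, and 85.7% of calls were higher.

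In detail, the test was limma with Benjamini-Hochberg adjustment over all features, each gene represented by 1 probe. Adjusted p was under 0.05 on the higher side for 1 of 41 transport genes. On the lower side it was 0 of 41, where the share was 0.205%; limma also gave 0 lower at unadjusted p under 0.05, where 3.39% of features were called. At unadjusted p under 0.05, 6 genes were higher (14.6%), where the share of all features was 10.4%: Ipo7, Kpna3, Xpot, Pom121, Ranbp2 and Nup153. The 6 were 3 of 16 pore genes, 2 of 15 import genes, 1 of 7 export genes and 0 of 3 Ran-cycle genes. Median log2 changes were 0.20 for pore genes, 0.23 for import genes, 0.22 for export genes and 0.18 for the 3 genes of the Ran group. Leaving out 1 sample or array moved these medians between 0.11 and 0.26 for pore genes, 0.18 and 0.35 for import genes, 0.11 and 0.40 for export genes and -0.22 and 0.30 for the Ran group, and differences between classes were not tested. The 4 medians became 0.03, 0.10, 0.03 and 0.01 after cyclic loess, and 0.12, 0.16, 0.11 and 0.10 after quantile normalization.

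**Figure D1:**
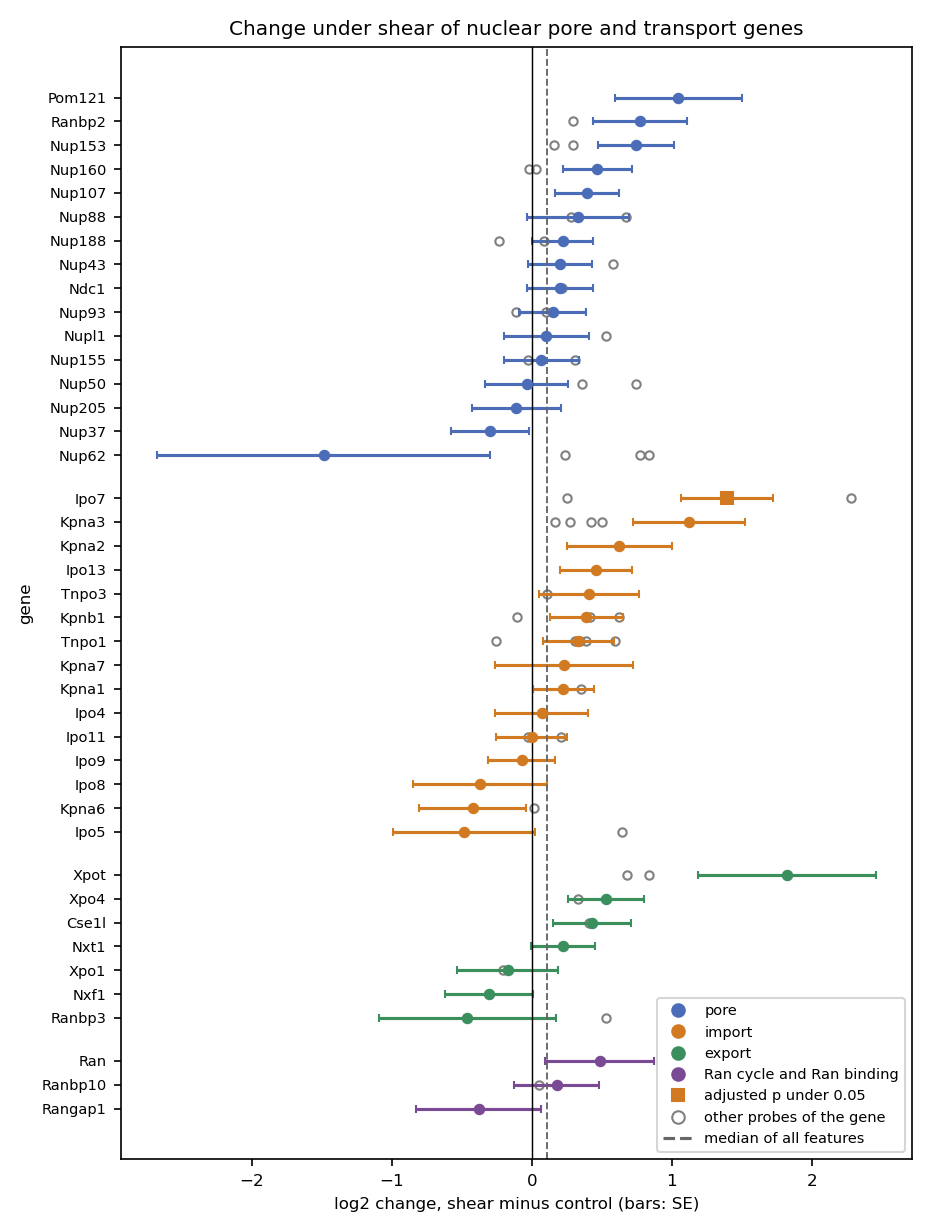
Log2 change, shear minus control, of the 41 transport genes tested, grouped by role, with bars for the standard error (SE). Open circles are the genes' other probes and the dashed line is the median of all features; Ipo7 (square) alone has an adjusted p under 0.05, and Nup62 and Ipo7 show how far probes of 1 gene can lie apart.

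Separate probes of a gene gave a second view. Of 90 transport probes tested, 69 were above 0 and 21 below, where 60% of all probes were above 0. Their median was 0.26 against 0.10 over all probes, with probes of the same gene counted separately. Adjusted p was under 0.05 for 1 probe, on the higher side, where the share of all probes was 1.42%, and 13 were higher at unadjusted p under 0.05, where the share was 11%. No probe was lower in limma at either level, where the share at unadjusted p under 0.05 was 3.57% of all probes. Of the 28 genes with more than 1 tested probe, 16 had all probes on 1 side of 0 and 12 had probes on both sides. Among 82 probes with 12 values, shear and control samples did not overlap for 2, both of Ipo7 and both higher under shear, where the share of all such probes was 6.52%. By chosen probe, 1 of 40 genes with 12 values did not overlap, Ipo7, where the share of features was 6.08%. With each array averaged to 1 value, limma called 0 transport genes at adjusted p under 0.05 (0.354% of features were called higher and 0.0427% lower). At unadjusted p under 0.05 it then gave 5 higher and 0 lower, where 8.97% and 4.22% of features were called.

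Among import genes, Ipo7 stood first. Its probe 18002 read 2.58, 2.08, 2.60, 2.59, 2.36 and 2.84 in shear samples 1 to 6 and 1.25, 1.40, 0.39, 1.07, 1.21 and 1.35 in control samples 1 to 6. Every shear sample lay above every control sample, with control 3 below the other controls. The log2 change was 1.40 ± 0.33 (SE, n = 6 samples and 3 arrays per group; 95% interval 0.69 to 2.10), and limma gave an adjusted p of 0.0497. With each array averaged to 1 value the change was 1.37. Over all 32 alternatives the change for Ipo7 ranged from 1.03 to 2.05 and the limma adjusted p from 0.000713 to 0.204. The lowest limma adjusted p came from the fit that took samples of an array as independent. The next lowest, 0.0175, came from the limma fit with no dye term. Both ends of the range of change came from another Ipo7 probe, 24146, described below. It was fitted in place of 18002 without control 4 (2.05) and without the array of controls 3 and 4 (1.03). The call was lost on leaving out any 1 sample other than shear 2, or any 1 array. In those 2 omissions the loss belongs to probe 24146, and probe 18002 was not fitted.

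The other Ipo7 probes also had changes above 0 but were uneven across arrays. Probe 24146 read 3.06, 2.45, 2.82, 2.90, 2.42 and 3.02 in shear samples, against 2.01, 1.99, -1.63, -2.36, 1.45 and 1.52 in controls. The groups did not overlap, and the 2 controls of 1 array lay far below the other 4; the log2 change was 2.28 with a limma adjusted p of 0.151. Probe 19 read 2.36, 1.87, 2.20, 2.06, -0.20 and 0.16 in shear samples and between 0.94 and 1.37 in controls. There the shear samples of 1 array lay below all controls while the other 4 lay above them, and the change was 0.25 with a limma adjusted p of 0.857.

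**Figure D2:**
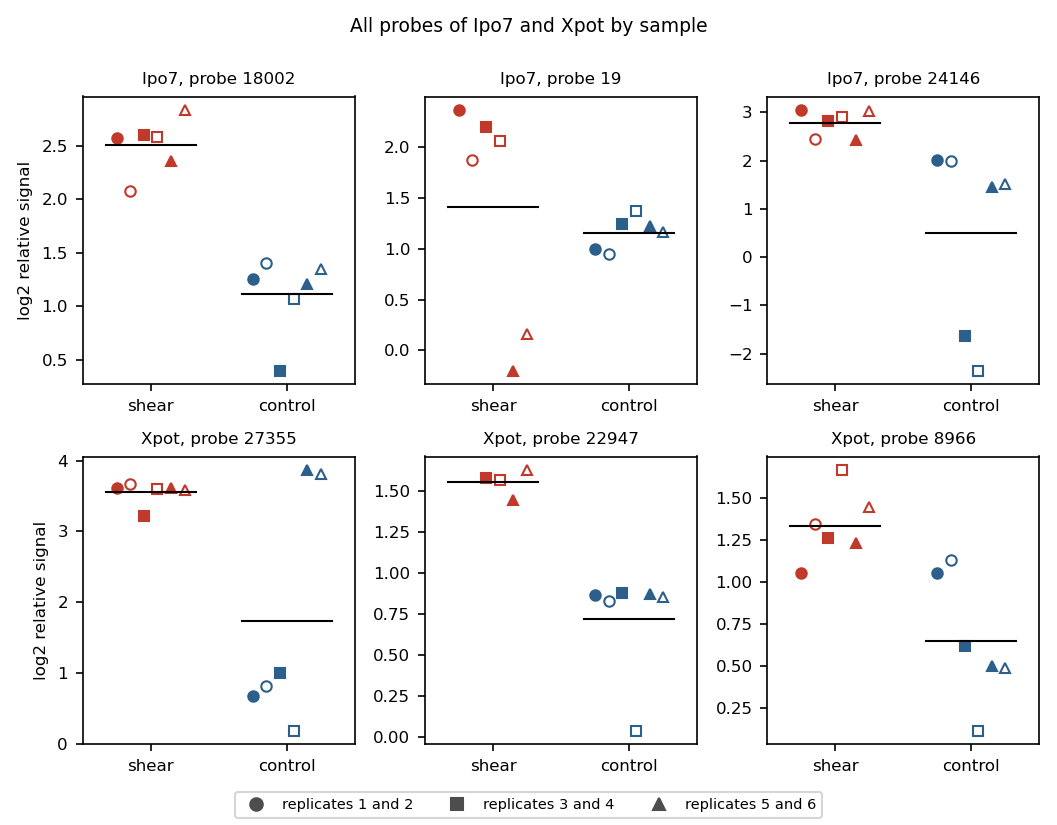
Log2 relative signal of each probe of Ipo7 and Xpot in each sample, shear left and control right, with symbols by array (filled for Cy5, open for Cy3) and a line at the group mean. Ipo7 probe 18002 separates the groups, while samples of 1 array differ there by up to 0.68; Xpot probe 27355 is near 3.87 and 3.82 in controls 5 and 6 and at most 1.01 in the other controls.

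Kpna3, an importin alpha that reads classical import signals, had the next highest change among import genes, 1.12 ± 0.40 (SE; limma adjusted p = 0.204). Its shear samples read 1.96, 1.35, 1.04, 0.31, 1.96 and 1.44, against 0.27, -0.03, -0.57, -0.66, 1.32 and 1.02 in controls. Shear 3 and 4 lay within the control range, below control 5, so the groups overlapped. All 5 Kpna3 probes were above 0, from 0.16 to 1.12.

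Kpna2, another importin alpha, had a lowest, median and highest value of 2.33, 2.77 and 3.28 in shear and 1.57, 2.32 and 2.50 in control samples, and a change of 0.63 (limma adjusted p = 0.495). Kpnb1, the importin beta that pairs with the alphas, had 2.69, 2.93 and 3.50 in shear and 2.22, 2.73 and 2.86 in control samples, and a change of 0.39 (limma adjusted p = 0.561). Ipo13, which moves cargo in both directions, had 1.22, 1.57 and 1.89 in shear and 0.76, 1.16 and 1.41 in control samples, and a change of 0.46 (limma adjusted p = 0.463). In all 3 the shear median was above the control median while the ranges overlapped. Of the 4 Kpnb1 probes, 3 were above 0 and 1 was below, from -0.11 to 0.62.

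The lowest import genes were Ipo5, Kpna6, Ipo8 and Ipo9, and none passed. Ipo5, a carrier of ribosomal proteins and histones, had -0.71, 1.28 and 2.31 in shear and 1.27, 1.59 and 1.98 in control samples, a change of -0.48 (limma adjusted p = 0.739). Its second tested probe went the other way, at 0.65. Kpna6, an importin alpha, had -0.38, 0.82 and 1.29 in shear and 0.44, 1.13 and 1.34 in control samples, a change of -0.42, and its second probe gave 0.02. Ipo8, a close relative of Ipo7, had -1.46, -1.02 and -0.02 in shear and -1.15, -0.48 and 0.08 in control samples, a change of -0.37 (limma adjusted p = 0.799). The difference between Ipo8 and Ipo7 was not tested. Ipo9, an importin for histones, was at -0.07, with 0.40, 0.67 and 0.84 in shear and 0.33, 0.73 and 1.06 in control samples. Shear ranges overlapped control ranges for all 4.

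The remaining tested import genes, Tnpo1, Tnpo3, Kpna1, Kpna7, Ipo4 and Ipo11, had no change above 0.41 (Tnpo3) and none passed. Tnpo1, transportin, which imports RNA-binding proteins, had 6 probes, of which 5 were above 0 and 1 was at -0.26. Kpna4 was not tested: it was measured in 6 shear samples (-3.48 to -2.31) but in 3 control samples (-3.22 to -2.89).

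Among pore genes, Pom121, an integral membrane protein that anchors the pore, had the highest change, 1.05 ± 0.45 (SE; limma adjusted p = 0.318). It read 0.13, -0.46, 0.80, 0.37, 0.14 and 0.57 in shear samples, against 0.00, -0.31, -1.99, -1.95, -0.38 and -0.10 in controls. Controls 3 and 4, which shared an array, were far below the other controls, and without that array the change was 0.46.

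Ranbp2, the large filament protein on the cytoplasmic face that binds Ran, read 1.06, 1.83, 1.19, 1.74, 0.49 and 1.84 in shear samples and 0.55, 0.65, 0.49, 0.75, 0.08 and 0.98 in controls. The groups overlapped through shear 5, the lowest of its group, and the change was 0.77 ± 0.34 (SE; limma adjusted p = 0.319). Nup153, a basket protein on the nuclear face, read 0.74, 1.25, 1.20, 1.12, 0.47 and 0.60 in shear samples and 0.03, 0.20, -0.10, 0.62, -0.10 and 0.25 in controls. Only control 4 reached into the shear range, and the change was 0.75 ± 0.27 (SE; limma adjusted p = 0.221). The second Ranbp2 probe gave 0.29, and the other Nup153 probes 0.29 and 0.16. The mean of a gene's probes gave 0.08 for Ranbp2, below both of its probes, and 0.26 for Nup153. The dimmest probe of each gene had no value in controls 3 and 4. These means therefore cover fewer probes in those controls and do not measure a weaker change. With array means, limma gave adjusted p of 0.197 for Ranbp2 and 0.274 for Nup153. Both passed in 1 of 32 alternatives, the fit that took samples of an array as independent, with limma adjusted p of 0.0112 for Ranbp2 and 0.0144 for Nup153; the estimated correlation within an array was 0.737.

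**Figure D3:**
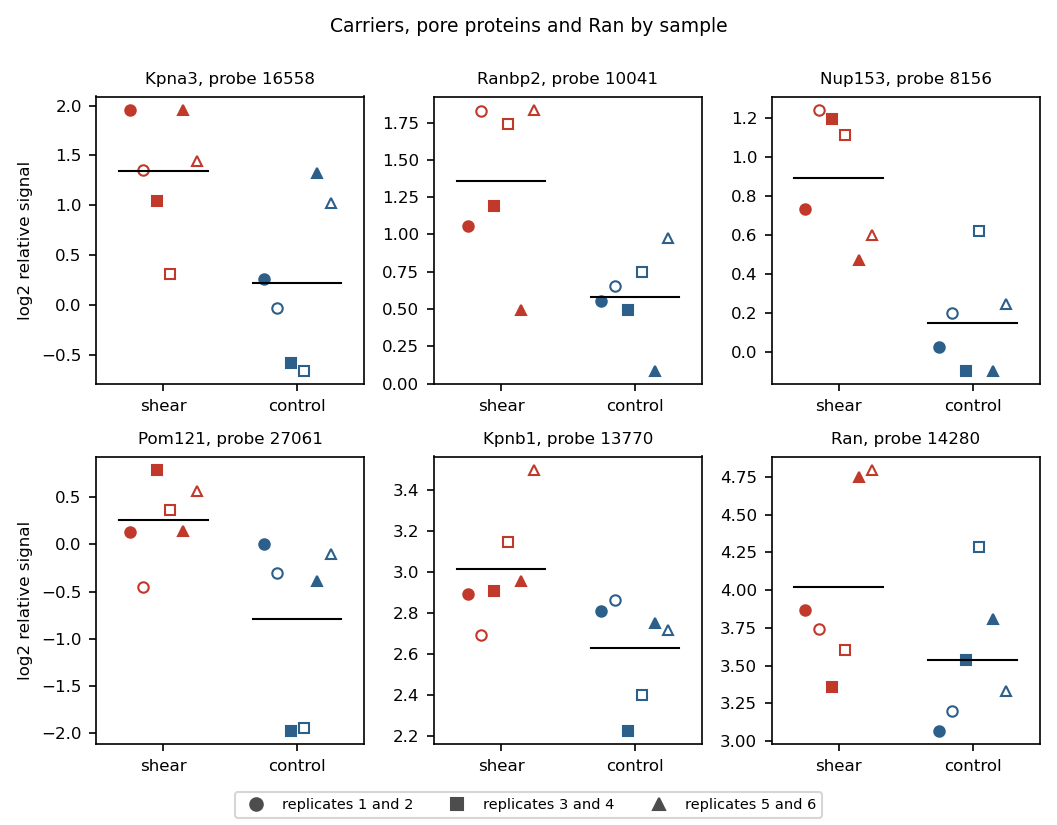
Log2 relative signal of Kpna3, Ranbp2, Nup153, Pom121, Kpnb1 and Ran in each sample, shear left and control right, with symbols by array (filled for Cy5, open for Cy3) and a line at the group mean. The group means are higher under shear in all 6 panels and the samples overlap in each, with controls 3 and 4 lowest for Kpna3, Pom121 and Kpnb1.

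Scaffold proteins had smaller values, none of which passed. Nup160, of the Y-shaped outer ring, had 1.89, 2.58 and 2.79 in shear and 1.52, 2.04 and 2.29 in control samples, a change of 0.47 (limma adjusted p = 0.431). Its other probes, 0.03 and -0.02, did not share that value. Nup107, Nup43 and Nup37 belong to the same ring, and their changes were 0.39, 0.20 and -0.30. Nup37 had 0.45, 0.77 and 1.01 in shear and 0.23, 1.08 and 1.70 in control samples. Inner ring proteins Nup205, Nup188, Nup155 and Nup93 lay between -0.11 and 0.22; Nup205 had 0.15, 0.62 and 1.42 in shear and 0.34, 0.81 and 1.27 in control samples. Ndc1, a membrane protein of the pore, was at 0.20, Nup88, on the cytoplasmic side, at 0.33, and Nupl1, of the central channel, at 0.10.

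Nup50, which helps release cargo in the nucleus, was at -0.04 on its chosen probe, with 0.12, 1.18 and 1.50 in shear and 0.84, 0.98 and 1.07 in control samples. Its other probes gave 0.74 and 0.36. Nup210 was not tested, since neither of its 2 probes had a value in any sample.

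Nup62, a protein of the central channel barrier, had the lowest change of all transport genes, -1.49 ± 1.19 (SE; limma adjusted p = 0.637), and its values were in separate levels by array. Probe 2815 read 5.05, 5.46, 0.76, 0.63, 0.49 and 0.58 in shear samples, against 5.57, 5.60, 4.73, 5.10, 0.49 and 0.41 in controls. It was high on 1 of 3 shear arrays and on 2 of 3 control arrays, with no sample between. The other 3 Nup62 probes were above 0, at 0.84, 0.77 and 0.23 (limma adjusted p from 0.261 to 0.736).

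Such stepwise probes were counted by a criterion chosen after the values were seen: array means of a group differed by more than 2 while samples of an array differed by less than 1. It held for 7 of 82 transport probes with all values (8.54%) and 613 of 17080 probes in all (3.59%). The 7 were Ipo7 probes 19 and 24146, Xpot probe 27355, Nup62 probe 2815, Ranbp3 probe 22389 and the single probes of Rangap1 and Kpna7. Scanner and spot filter are matters not given in the sources used here, and their part in the changes was not tested.

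**Figure D4:**
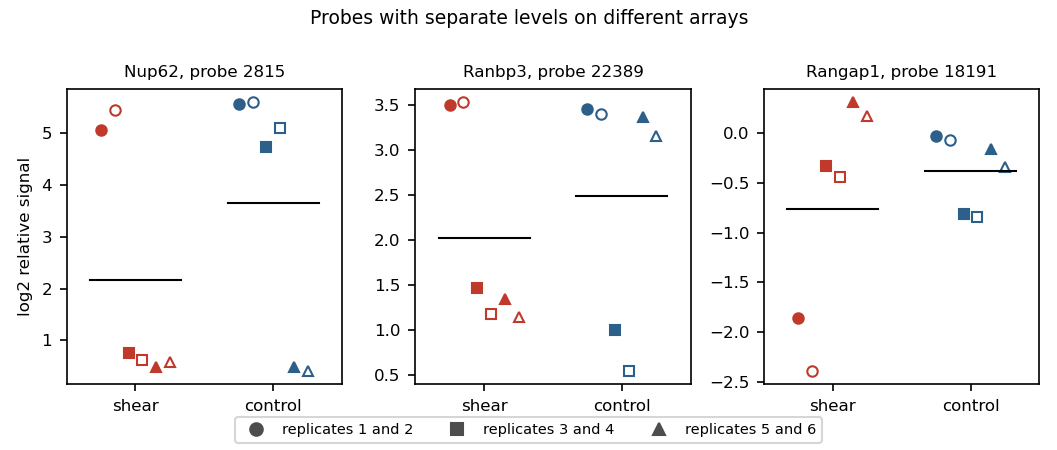
Log2 relative signal of 3 probes in each sample, shear left and control right, with symbols by array (filled for Cy5, open for Cy3) and a line at the group mean. Samples fall into separate levels by array within a group, near 5 or below 1 for Nup62, so the group mean lies where no sample does. Rangap1 controls are the exception: they run from -0.85 to -0.03, with their mean among them.

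Export was led by Xpot, the exportin of transfer RNA, with a change of 1.82 ± 0.64 (SE) that missed the threshold (limma adjusted p = 0.196). Probe 27355 read 3.61, 3.67, 3.22, 3.60, 3.62 and 3.59 in shear samples, against 0.68, 0.82, 1.01, 0.18, 3.87 and 3.82 in controls. The shear samples were close together, 4 controls were far below them, and controls 5 and 6, which shared an array, were above all of them. The change depended on which control array was left out: it was 1.33 without controls 1 and 2 (limma adjusted p = 0.410), 1.25 without controls 3 and 4 (0.374) and 2.88 without controls 5 and 6 (0.00464), the only one of 32 alternatives to pass. The mean of the Xpot probes gave 1.21 (limma adjusted p = 0.107). The other probes had no such step. Probe 22947 read 1.45 to 1.63 in the 4 shear samples with a value and 0.04 to 0.88 in 6 controls, a change of 0.83 with groups that did not overlap (limma adjusted p = 0.296). Probe 8966 read 1.05 to 1.67 in shear and 0.11 to 1.13 in control samples, a change of 0.68 (limma adjusted p = 0.299).

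Xpo4, an exportin of proteins, had -0.11, 0.54 and 0.79 in shear and -0.49, -0.11 and 0.40 in control samples, a change of 0.53 (limma adjusted p = 0.421). Cse1l, which returns importin alpha to the cytoplasm, had 0.71, 1.10 and 1.69 in shear and 0.32, 0.80 and 1.00 in control samples, a change of 0.43 (limma adjusted p = 0.538). Its second probe gave 0.41. Both genes had a higher shear median and overlapping ranges.

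Xpo1, the main exportin of proteins, was at -0.17, with 0.31, 1.14 and 1.85 in shear and 1.00, 1.06 and 1.99 in control samples (limma adjusted p = 0.880); its second probe gave -0.21. The bulk mRNA export receptor Nxf1 was at -0.31 in 5 shear (-2.54 to -1.69) and 5 control samples (-2.35 to -1.40), and its partner Nxt1 was at 0.22, with 1.08 to 1.88 in shear and 0.85 to 1.46 in control samples. These 3 stood within their spread.

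Ranbp3, a cofactor of Xpo1, had the lowest export value, -0.46 ± 0.63 (SE), again by array: it read above 3 in shear samples 1 and 2 and in controls 1, 2, 5 and 6, and between 0.55 and 1.47 in the others. Its second probe gave 0.53. Xpo5, the exportin of microRNA precursors, had no value in shear samples but 1.29, 1.33, 0.09 and -0.21 in controls 1 to 4, and was not tested. Xpo4 probe 12226 was likewise measured in 4 controls (-0.24 to 1.13) and in 0 shear samples. A missing spot gives no level, so these differences in detection have no direction. Xpo6 had no value in any sample.

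Of the Ran cycle, Ran itself had a change of 0.48 ± 0.39 (SE; limma adjusted p = 0.637). It read 3.87, 3.74, 3.36, 3.61, 4.75 and 4.80 in shear samples and 3.06, 3.20, 3.54, 4.28, 3.81 and 3.33 in controls. Shear 5 and 6, of 1 array, lay above the rest, and the other shear samples were within the control range. Rangap1, the GTPase activator of Ran, was at -0.38 ± 0.44 (SE), with -1.86 and -2.39 in shear 1 and 2, -0.45 to 0.31 in the other shear samples and -0.85 to -0.03 in controls. Without the array of shear 1 and 2 the change was 0.30. Ranbp10 was at 0.18, with 0.75, 1.05 and 1.31 in shear and 0.03, 1.02 and 1.45 in control samples. Ranbp9 had no value in any sample.

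Over the 12 samples, Ipo7 probe 18002 followed most closely the chosen probes of Nup107 (Pearson r = 0.848), Kpnb1 (0.831), Pom121 (0.814), Ipo13 (0.797) and Kpna2 (0.791). This is a description of 12 values that share 6 arrays and 2 groups. Control 3 was the lowest control sample for Nup107, Kpnb1, Pom121 and Kpna2, as it was for Ipo7.

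Other genes of the transport pathway, which the name rule did not take, were read from a list of 42, of which 29 were tested. Of these 1 rose, where the share of all features was 1.28%, and 0 fell in limma. At unadjusted p under 0.05, 5 were higher (17.2%), where the share was 10.4%, and 0 were lower; their median was 0.27, against 0.11 over all features. The gene that rose was Rcc1, the exchange factor that loads Ran with GTP. Its shear samples read 0.96, 0.51, 1.70, 1.41, 1.25 and 1.18, against -0.19, -0.18, -0.27, -0.32, 0.34 and -0.16 in controls. The groups did not overlap, and the change was 1.30 ± 0.27 (SE), 2.46-fold (limma adjusted p = 0.0298). Its second probe gave 1.69, with a limma adjusted p of 0.0199 over every probe. The call was lost in 10 of 32 alternatives, among them array means (limma adjusted p = 0.0919) and the omission of shear 1, shear 6, control 3 or any array but that of shear 1 and 2.

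Ncbp1, the large subunit of the nuclear cap-binding complex, was at 1.10 ± 0.30 (SE; limma adjusted p = 0.0923) on 1 probe. The other probe was at -0.82 (limma adjusted p = 0.562) and had no value in controls 1 and 2. It read -1.43 and -1.58 in shear 3 and 4, of 1 array, and 0.69 to 1.08 in the other shear samples. Seh1l and Rae1, pore proteins whose symbols fall outside the Nup pattern, were at 0.93 (limma adjusted p = 0.207) and 0.88 (limma adjusted p = 0.0953) on their chosen probes. The second Rae1 probe gave 0.83, and the other 3 Seh1l probes gave 0.90, 0.32 and -0.0043. The lowest were Zc3h11a at -0.19, Ncbp3 at -0.16 and Thoc7 at -0.13, which take part in mRNA export.

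Of 20 genes of the nuclear envelope and lamina, 0 passed in limma and 4 were higher at unadjusted p under 0.05 (20%, where the share of all features was 10.4%), with a median of 0.19 against 0.11. The highest were the membrane proteins Tmem201 at 1.06 (limma adjusted p = 0.0667) and Lemd3 at 0.73, and Lmna, the A-type lamin, at 0.70. The lowest were Emd at -0.77 and Sun2 at -0.47, both of the inner nuclear membrane, and Tor1aip2, a torsin cofactor, at -0.37. A second probe went the other way for Lmna (-0.08) and for Emd (0.16), while that of Tmem201 gave 0.62. Leaving out 1 sample or array gave Emd changes of -1.42 to -0.02. The value of -0.02 came from its second probe, fitted without the array of controls 1 and 2.

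Other gene groups of the same samples bracketed the transport median of 0.22. Of 42 ribosome biogenesis genes, 8 rose, where the share of all features was 1.28%, and their median was 0.62. At unadjusted p under 0.05, 20 were higher (47.6%, where the share of all features was again 10.4%) and 0 lower. Of 52 splicing genes, 2 rose, with a median of 0.28. At unadjusted p under 0.05, 8 of them were higher (15.4%) and 1 lower. Of 60 cytosolic ribosomal protein genes, 0 passed in limma, with a median of 0.03. At unadjusted p under 0.05, 2 of these were higher and 2 lower, where 3.39% of all features were called lower. No difference between these groups was tested.

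**Figure D5:**
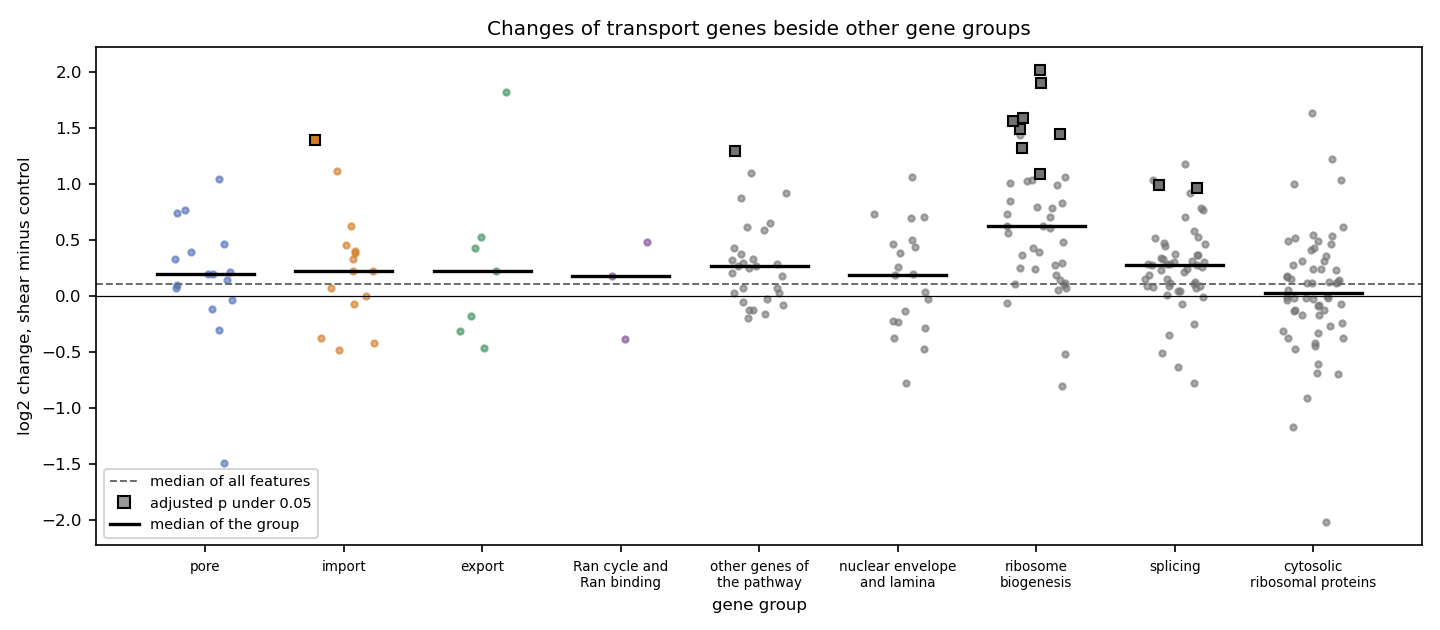
Log2 change, shear minus control, of each gene tested in the 4 transport classes (coloured) and in 5 other gene groups (grey); squares have an adjusted p under 0.05, thick lines are group medians and the dashed line is the median of all features. The transport medians lie between 0.18 and 0.23, that of ribosome biogenesis at 0.62 and that of cytosolic ribosomal proteins at 0.03.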

How the data were processed

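Total RNA of 12 samples, 6 shear and 6 control, was measured on 6 spotted 2-colour arrays; groups and dyes follow the labels, and the sharing of arrays is inferred from replicate numbers and dyes. The deposited values are log2 values made by the authors, relative to block medians; with 1 scale per block and sample, 100% of them came out as whole numbers within 0.002, in 576 of 576 combinations, which settles the log base. Such values hide any change that all genes share. Scanner, background correction and spot filter: not given in the sources used here. The number of arrays limits the precision.

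Probes were named from the platform annotation (1 symbol for 18511, several for 937, none for 9256), and 18267 symbols were updated through the Entrez number. R 4.3.3 with limma 3.58.1 fitted group and dye, with the array as a random block (correlation 0.737), to the probe of each gene measured in most samples, then of highest mean. Alternatives that kept 1 probe per gene made this choice anew, so leaving out samples could change the probe. Features were kept when at least 4 of 6 shear and 4 of 6 control samples had a value, which left 15601, of which 8926 were named genes. Changes are shear minus control with moderated standard errors; Benjamini-Hochberg adjustment ran over all features at a threshold of 0.05. Because each array holds 1 group, the samples are not independent and p-values may be too small; array means (3 against 3) are the alternative.

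Same-numbered shear and control samples correlated at -0.0908 to 0.116 in their deviations, so the numbers were not taken as pairs. The members, lists, tests and motifs were chosen with earlier results of these data known. Full values are given for members that pass and, in each class, for up to 4 highest and 4 lowest changes, and for Ran, Kpnb1, Xpo1, Nxf1, Cse1l and Kpna2. In the other lists, genes that pass or the 3 highest and 3 lowest are named; passing genes of the comparison groups are counted only. Tested on simulated data of this comparison with 15601 features, the fit recovered 21% of 100 features with a log2 change of 1 and 92% of 100 with a log2 change of 2; false calls were 12 of 125. Alternatives varied the array and dye terms, scaling, filters, probe choice, variance model and the samples used. Figures used Python 3.11.15, pandas 2.3.3, numpy 2.4.6 and matplotlib 3.10.9.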

Additional observations from a re-analysis of the deposited data

Results flagged for a closer look

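Dixon's ratio at the 95% level was taken in 84 groups of 6 samples (5 for Nxf1). In 7 of them the lowest or highest sample stood apart from the nearest of the others. That level means about 1 in 20 groups only for independent samples. Samples here share arrays and recur across genes, so the 7 cannot be set against that rate. On the chosen probes, Xpot was lowest in shear 3 at 3.22, next to 3.59. Ipo7 was lowest in control 3 at 0.39, next to 1.07. Ndc1 was lowest in shear 2 at 0.29, and Nup188 likewise at 1.67. Ipo11 was lowest in control 4 at 0.26, and Ipo4 likewise at 0.041. The number of features with a value was lowest among shear samples in shear 2, at 21847.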

How the results depend on the processing

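Of 1265 combinations of 40 named genes with 32 alternatives, 1194 kept direction and side of the threshold, 36 lost a call, 12 gained one and 23 reversed. The count of features past adjusted p 0.05, 232, was 65 with array means, 1716 with no array block, 366 with no dye term, 100 with a replicate block in place of the dye, 133 after quantile normalization and 354 with every probe tested. Transport genes past it, 1, became 0 with array means, the replicate block, centring on common features, quantile normalization, cyclic loess, a value in at least 3 samples per group, the mean of a gene's probes, its highest-mean probe or dim features left out, and 3 with no array block. At unadjusted p under 0.05, 13 genes were higher with no array block, 13 probes with every probe, and 1 gene lower with the replicate block, which otherwise changed no transport call but that of Ipo7. Centring on common features gave 68.6% of calls higher, cyclic loess 69% and quantile normalization 85.7%, against 86.2%. After cyclic loess the median was 0.029 for pore genes and 0.030 for all transport genes. The mean of a gene's probes reversed Ranbp3 (0.034), Ipo9 (0.39), Nup50 (0.36), Nup205 (0.25), Nup62 (0.090) and Lemd3 (-0.16), and the highest-mean probe Ncbp1 (-0.82). For Ipo9, Nup205 and Lemd3 the mean took in a probe with values in unequal numbers of samples. These were 2 shear and 4 control samples for Ipo9, 0 and 2 for Nup205, and 6 and 2 for Lemd3. Their means thus cover different probes in different samples. Leaving out 1 sample or array gave 42 to 235 features, 0 to 1 transport genes past adjusted p 0.05, and 3 to 8 higher and 0 to 2 lower at unadjusted p under 0.05. The feature count was 42 without the array of shear 3 and 4, and 151 or fewer (features past adjusted p 0.05) in every omission but those of shear 2, shear 4, control 2 and control 4. Changes then spanned 0 for Nup50 (-0.27 to 0.36), Rangap1 (-0.88 to 0.30), Ranbp10 (-0.22 to 0.48), Ipo5 (-0.89 to 0.0056), Nup205 (-0.33 to 0.087) and Thoc7 (-0.29 to 0.015). They also did for Xpo1 (-0.42 to 0.13), Kpna6 (-0.76 to 0.038), Zc3h11a (-0.33 to 0.0050), Ranbp3 (-1.32 to 0.011) and Ipo9 (-0.22 to 0.061). Ncbp1 ranged from -0.82 to 1.23, with -0.82 from its other probe, fitted without the array of controls 1 and 2. Except where a smaller set of samples or another probe makes the change, the cause was not tested. Members without a value have no bound, since the spot filter is not given.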
